A study of Strongylocentrotus purpuratus with 4 samples.

Results

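Endo16, a gut gene of the purple sea urchin Strongylocentrotus purpuratus, was followed cell by cell in the 4 droplet single-cell RNA libraries of a study on larval pigment cells. It was taken by its symbol, as 1 of 32262 genes counted in every library, and its level, the share of positive cells, its distribution over cells and its co-detection with GATAe and blimp1/krox were read in cells with 400 to 2500 detected genes. The uninjected libraries held cells enriched for ectoderm, one from larvae at 72 hours post fertilization (hpf) and one from gastrulae at 48 hpf. The injected libraries held whole gastrulae at 48 hpf that had received either a morpholino oligonucleotide (MO) blocking translation of gcm, a transcription factor of pigment cells, or a control MO directed at a gene of another echinoderm, the sea star Patiria miniata. Eggs were fertilized with 1 mM 3-amino-triazol, the uninjected embryos received no MO, and the gcm MO was used at 0.5 mM. Injected embryos of each condition were chosen for dissociation by their expected phenotype, which for the gcm MO was a straight gut without pigment. The animals of a library were pooled.

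Endo16 encodes a large secreted protein of the endoderm. Its RNA appears in the vegetal plate of the blastula, stays in the archenteron through gastrulation and is later restricted to the midgut, and its upstream region is a classic model of how a gene reads several transcription factors at once. GATAe, a zinc finger factor that keeps the endoderm programme running, and blimp1/krox, a zinc finger factor first of the endomesoderm and later of the gut, belong to the same gene regulatory network.

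Each condition was represented by 1 library, so that no test between conditions could be made and no p-value is given. All intervals are at 95% and cover counting error only. They take each unique molecular identifier (UMI, 1 per captured RNA molecule) as independent, although Endo16 UMIs were concentrated in few cells, so intervals of shares of cells are the wider guide. After filtering, 6666 cells of the 72 hpf library, 5170 of the uninjected 48 hpf library, 539 of the gcm MO library and 3323 of the control MO library remained, with median depths of 1487, 3064, 3831 and 2684 UMIs per cell in that order. The libraries shared between 0 and 14 cell barcodes a pair, and 1 barcode, common to both MO libraries, carried Endo16 in both. The RNA of gcm itself, which a translation block does not act on directly, stood at 5.49 CPM (UMIs of a gene per 1000000 UMIs of the same cells, interval 2.63 to 10.1) in the gcm MO library and 27.6 CPM (24.3 to 31.2) in the control MO library.

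Endo16 was detected in all 4 libraries. Its summed level was 18.7 CPM (16.5 to 21.1) at 72 hpf, from 273 UMIs, and 219 CPM (212 to 226) in the uninjected 48 hpf library, from 3367 UMIs. It was 1217 CPM (1167 to 1269) in the gcm MO library, from 2218 UMIs, and 690 CPM (674 to 708) in the control MO library, from 6431 UMIs. The order of levels was thus gcm MO, control MO, uninjected 48 hpf and uninjected 72 hpf from high to low, and no neighbouring intervals overlapped.

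The share of cells with any Endo16 UMI kept this order. At full depth it was 1.25% at 72 hpf (83 cells), 6.71% in the uninjected 48 hpf library (347 cells), 22.3% in the gcm MO library (120 cells) and 16.5% in the control MO library (548 cells). Since a deeper cell has more chances to show a UMI, every cell was also thinned at random to 500 UMIs, which left out 0 cells. The thinned share was 0.570% (0.404 to 0.782) at 72 hpf and 3.08% (2.62 to 3.58) in the uninjected 48 hpf library. It was 14.1% (11.3 to 17.3) in the gcm MO library and 9.21% (8.25 to 10.2) in the control MO library. A cell was called Endo16-high with at least 5 Endo16 UMIs of the 500, or 1% of the thinned UMIs. High cells were 2 of 6666 at 72 hpf, 18 of 5170 in the uninjected 48 hpf library, 22 of 539 in the gcm MO library and 57 of 3323 in the control MO library. By the random draw, a high cell can lie below 1% at full depth, and the reverse. Among cells with UMIs of both GATAe and blimp1/krox, 1, 17, 9 and 41 were high in that order. At full depth 0, 10, 13 and 20 of them stood at 1% or more.

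**Figure D1:**
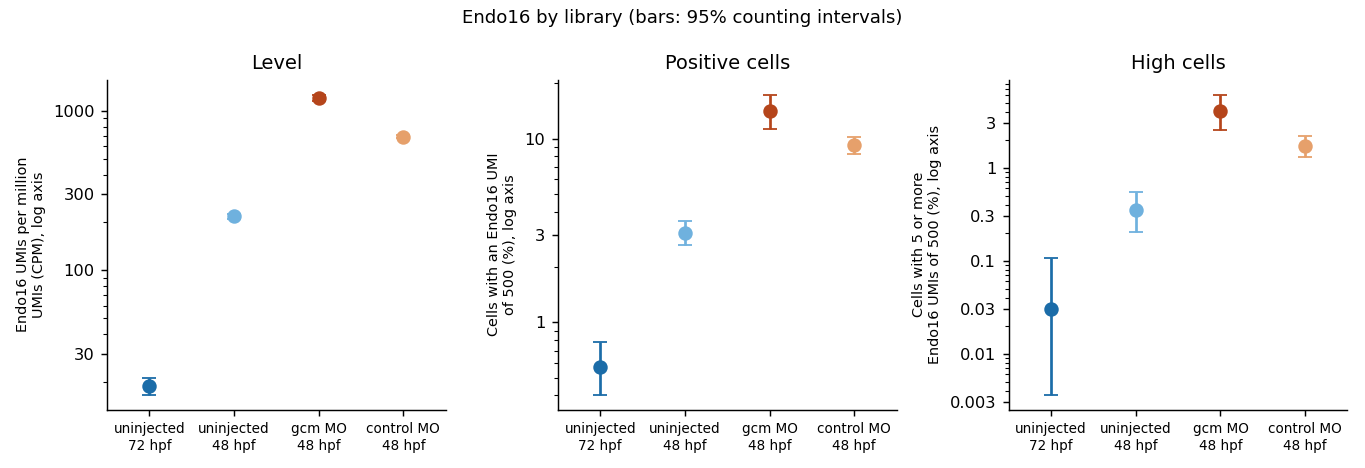
Level of Endo16 (left, CPM), share of cells with an Endo16 UMI after thinning to 500 UMIs (middle, %) and share with 5 or more (right, %) in each library, on log axes. Points are the 4 libraries, bars are 95% counting intervals, and all 3 measures run from 72 hpf (18.7 CPM) as the lowest to gcm MO (1217 CPM) as the highest.

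Endo16 RNA was held by a small number of strongly positive cells. At 72 hpf 7 cells carried at least 50% of the Endo16 UMIs, and in the uninjected 48 hpf library 24 cells did. In the gcm MO library 12 cells, and in the control MO library 77 cells, carried that much. These were 0.105%, 0.464%, 2.23% and 2.32% of the kept cells in the same order. Among positive cells the median was 1 UMI at 72 hpf, 1 in the uninjected 48 hpf library, 4 in the gcm MO library and 3 in the control MO library, while the highest single cells had 34, 130, 130 and 107 UMIs. Most positive cells of the uninjected libraries therefore rested on 1 UMI, 58 of 83 at 72 hpf and 201 of 347 at 48 hpf, against 44 of 120 with the gcm MO and 231 of 548 with the control MO. Cells with 20 or more Endo16 UMIs were 3 at 72 hpf, holding 32.6% of the Endo16 UMIs, and 52 in the uninjected 48 hpf library, holding 76.6%. They were 31 in the gcm MO library, holding 85.1%, and 135 in the control MO library, holding 71.8%. After thinning, the variance of Endo16 UMIs over cells was 2.93 times the mean at 72 hpf, 4.33 times in the uninjected 48 hpf library, 7.21 times with the gcm MO and 4.02 times with the control MO, where even spreading over cells would give 1.

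**Figure D2:**
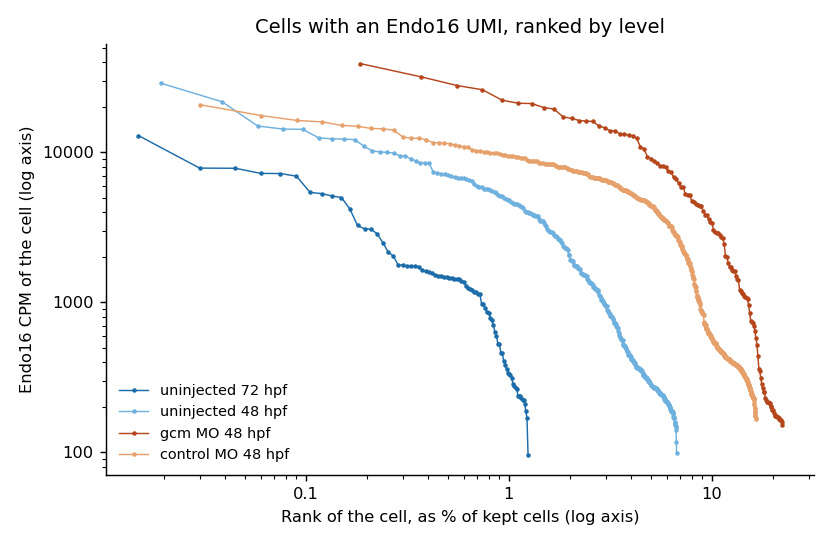
Endo16 CPM of each positive cell (y, log axis) against its rank as a percentage of the kept cells of its library (x, log axis). Each point is a cell and each line a library. The curves start at 12945 CPM for 72 hpf, 28919 CPM for uninjected 48 hpf, 39106 CPM for gcm MO and 20798 CPM for control MO, and end at the share of positive cells.

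The threshold for high cells cuts a continuous range. Thinned counts just inside it (5 UMIs) were found in 0 cells at 72 hpf, 5 in the uninjected 48 hpf library, 3 with the gcm MO and 24 with the control MO. Thinned counts just outside it (4 UMIs) were found in 2, 9, 10 and 22 cells in the same order.

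Pigment cells and skeletogenic cells, which are mesodermal and not part of the gut, served as cells that should lack Endo16, so that UMIs in them could come from free RNA in the droplets. Pigment-marker cells were called with at least 3 thinned UMIs over 3 pigment genes, a polyketide synthase, a sulfotransferase and a flavin monooxygenase (LOC588806, LOC592500 and LOC588371). Skeleton-marker cells were called likewise over SM50, SM37, SM30A, PM27 and msp130, spicule proteins. At 72 hpf Endo16 stood at 5.15 CPM (1.06 to 15.1) in 470 pigment-marker cells, of which 0.213% (0.00539 to 1.18) had a thinned Endo16 UMI. Their median depth was 1028 UMIs, against 1613 in cells of neither marker list. The 72 hpf share over all cells, 0.570%, lay inside that interval, so at this stage the plain share of positive cells was not distinguishable from background. In the uninjected 48 hpf library pigment-marker cells stood at 88.8 CPM (70.9 to 110), with a thinned share of 1.33% (0.491 to 2.88) and a median depth of 1788 UMIs, against 229 CPM, 3.26% and 3221 UMIs in cells of neither list. In the control MO library they stood at 156 CPM (121 to 199), with 2.55% (0.833 to 5.85) and 2055 UMIs, against 728 CPM, 9.76% and 2712 UMIs. Single cells with regulator UMIs carried much of these levels. In the uninjected 48 hpf library 63 of the 85 Endo16 UMIs came from 1 pigment-marker cell with 2 UMIs of blimp1/krox, and the level without it was 23.1 CPM (14.5 to 35.0). In the control MO library 32 of the 66 came from 1 cell with 4 UMIs of GATAe and 5 of blimp1/krox, and the level without it was 81.6 CPM (56.5 to 114). Endo16 was thus lower in pigment-marker cells than in the cells of neither list in these 3 libraries by level, and in both 48 hpf ones the interval of the share ended below the share of the other cells.

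Skeleton-marker cells showed 0 Endo16 UMIs in 14 cells at 72 hpf (75.4 CPM at most), 2 UMIs in 24 cells (20.8 CPM, 2.52 to 75.3) in the uninjected 48 hpf library and 12 UMIs in 52 cells in the control MO library (75.5 CPM, 39.0 to 132). Of these 12, 10 came from 1 cell with 2 UMIs of blimp1/krox, and the level without it was 12.8 CPM (1.55 to 46.3). The gcm MO library held 6 pigment-marker and 2 skeleton-marker cells, too few to set a background there. After thinning 0 pigment-marker or skeleton-marker cells were Endo16-high in any library, while at full depth the pigment-marker cell with 63 Endo16 UMIs of the uninjected 48 hpf library stood at 1.22% of its RNA.

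Cells with a GATAe or a blimp1/krox UMI carried most of the Endo16 RNA. They were 0.975% of cells at 72 hpf, 4.95% in the uninjected 48 hpf library, 14.3% with the gcm MO and 12.0% with the control MO, and held 64.5%, 88.2%, 82.2% and 86.9% of the Endo16 UMIs in that order. GATAe-positive cells were 31 at 72 hpf, 169 in the uninjected 48 hpf library, 55 with the gcm MO and 306 with the control MO. Endo16 stood at 1314 CPM in GATAe-positive and 10.3 CPM in GATAe-negative cells at 72 hpf, and at 3723 and 39.4 CPM in the uninjected 48 hpf library. It stood at 8139 CPM in GATAe-positive and 331 CPM in GATAe-negative cells with the gcm MO, and at 4308 and 191 CPM with the control MO. The ratio of GATAe-positive to GATAe-negative cells was 128 (99.96 to 163) at 72 hpf, 94.4 (86.3 to 103) in the uninjected 48 hpf library, 24.6 (22.3 to 27.2) with the gcm MO and 22.5 (21.3 to 23.9) with the control MO.

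The same held for blimp1/krox. Its positive cells numbered 43 at 72 hpf, 183 in the uninjected 48 hpf library, 55 with the gcm MO and 290 with the control MO. Endo16 stood at 1508 CPM in them and 7.93 CPM in blimp1/krox-negative cells at 72 hpf, a ratio of 190 (149 to 244). In the uninjected 48 hpf library the levels were 3764 and 30.3 CPM, a ratio of 124 (113 to 138). With the gcm MO they were 8224 and 381 CPM, a ratio of 21.6 (19.7 to 23.7), and with the control MO 4900 and 118 CPM, a ratio of 41.4 (38.7 to 44.4). In every library the positive cells of either regulator were thus over 20 times above the negative ones.

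Cells positive for both regulators stood highest. They were 9 cells at 72 hpf with 2632 CPM of Endo16 (2155 to 3184), 96 in the uninjected 48 hpf library with 5581 CPM (5375 to 5794), 33 with the gcm MO with 10451 CPM (9922 to 11001) and 197 with the control MO with 5797 CPM (5633 to 5964). These cells made up 0.135%, 1.86%, 6.12% and 5.93% of kept cells in that order and held 38.8%, 81.6%, 65.8% and 73.7% of the Endo16 UMIs. Endo16 was detected at full depth in 9 of 9, 87 of 96, 32 of 33 and 189 of 197 of them. Cells with neither regulator UMI stood at 6.72 CPM at 72 hpf, 27.8 CPM in the uninjected 48 hpf library, 253 CPM with the gcm MO and 107 CPM with the control MO.

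A single regulator went with less Endo16 than both, and blimp1/krox alone and GATAe alone did not rank alike in all libraries. These classes were called at full depth, and cells with both regulators were deeper. Their median depths were 3024, 5394, 4998 and 3919 UMIs (72 hpf, uninjected 48 hpf, gcm MO, control MO). Cells with only GATAe had 1403.5, 3582, 3401.5 and 2533 UMIs, and those with only blimp1/krox 908, 3174, 1218 and 3029. The part of depth was not tested. In cells with only blimp1/krox Endo16 stood at 806 CPM at 72 hpf (602 to 1057), 625 CPM in the uninjected 48 hpf library (536 to 724) and 2431 CPM with the control MO (2257 to 2615). In cells with only GATAe it stood at 333 CPM (197 to 526), 167 CPM (121 to 225) and 410 CPM (342 to 487) in the same order. With the gcm MO the order was the other way round, with 2541 CPM (2136 to 3001) in 22 cells with only blimp1/krox and 3343 CPM (2921 to 3810) in 22 cells with only GATAe. These classes were small and single cells weighed on them. Without the highest cell of each class, chosen after the data were seen, cells with only blimp1/krox stood at 299 CPM (177 to 473) at 72 hpf, 411 CPM (340 to 494) in the uninjected 48 hpf library, 1616 CPM (1287 to 2003) with the gcm MO and 2324 CPM (2153 to 2505) with the control MO. Cells with only GATAe then stood at 152 CPM (65.5 to 299), 130 CPM (89.7 to 183), 2188 CPM (1834 to 2590) and 343 CPM (281 to 415) in the same order. The intervals of the single-regulator classes then overlapped at 72 hpf and with the gcm MO.

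**Figure D3:**
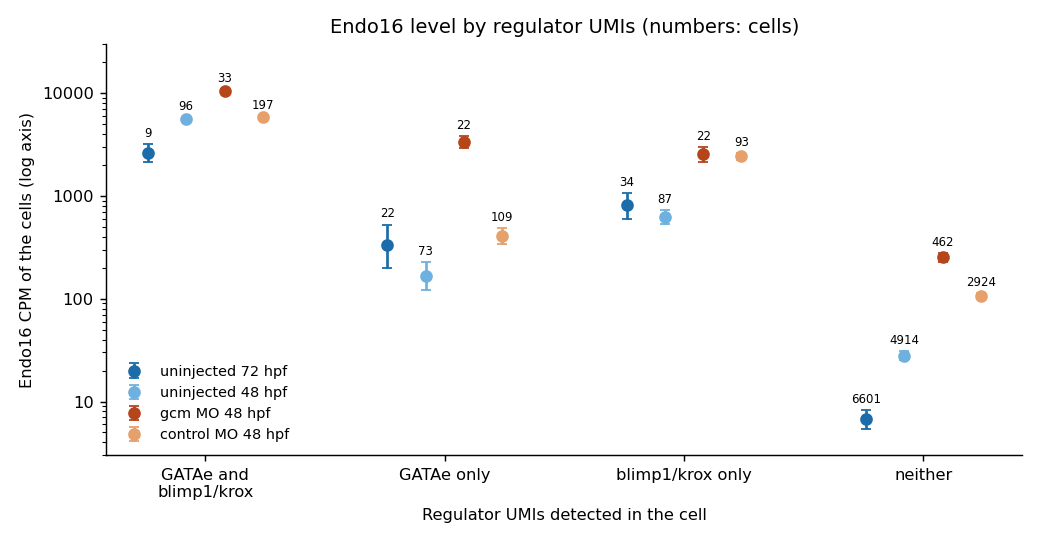
Endo16 CPM (y, log axis) in cells with UMIs of both regulators, of GATAe only, of blimp1/krox only and of neither, by library. Points are sums over the cells of a class, bars are 95% counting intervals and the numbers above the points are cells. Cells with both regulators stand highest in each library (2632, 5581, 10451 and 5797 CPM) and cells with neither lowest.

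The share of regulator-positive cells that also had Endo16 was read with Endo16 thinned and the regulator at full depth. Among GATAe-positive cells it was 19.4% (7.45 to 37.5) at 72 hpf, 42.6% (35.0 to 50.4) in the uninjected 48 hpf library, 70.9% (57.1 to 82.4) with the gcm MO and 55.9% (50.1 to 61.5) with the control MO. In GATAe-negative cells it was 0.482%, 1.74%, 7.65% and 4.48% in that order. Median depths were 1974, 4386, 3935 and 3546 UMIs in GATAe-positive cells, against 1486, 3029, 3787 and 2638 UMIs in GATAe-negative cells. Among blimp1/krox-positive cells it was 20.9% (10.0 to 36.0) at 72 hpf, 46.5% (39.1 to 54.0) in the uninjected 48 hpf library, 65.5% (51.4 to 77.8) with the gcm MO and 68.3% (62.6 to 73.6) with the control MO. In blimp1/krox-negative cells it was 0.438%, 1.48%, 8.26% and 3.56%. The 72 hpf shares rest on 6 and 9 cells and were the least stable, at 40.0% and 39.1% after thinning to 1000 UMIs instead and at 37.2% for blimp1/krox in a second random draw.

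Read from the side of Endo16, the regulators became more frequent with each step in Endo16 UMIs in the 48 hpf libraries. In the control MO library blimp1/krox was found in 1.84% of 2775 cells without Endo16, 4.33% of 231 cells with 1 UMI, 27.4% of 62 cells with 2 to 4, 73.3% of 120 cells with 5 to 19 and 91.9% of 135 cells with 20 or more. In the uninjected 48 hpf library the same steps gave 1.47%, 5.97%, 38.0%, 70.5% and 96.2%. With the gcm MO they gave 3.34%, 6.82%, 18.2%, 47.8% and 74.2%. At full depth a single Endo16 UMI was thus a weak sign of a regulator-positive cell, and 20 or more a strong one. Cells with 20 or more were also deeper, and the part of depth was not tested. Median depths without Endo16 and with 20 or more were 2635 and 4246 UMIs with the control MO. They were 3029 and 6840.5 UMIs in the uninjected 48 hpf library and 3833 and 5227 UMIs with the gcm MO. The 22 gcm MO cells with 2 to 4 had a median of 779.5 UMIs. For GATAe the last step was 82.2% with the control MO, 92.3% in the uninjected 48 hpf library and 71.0% with the gcm MO. At 72 hpf 3 cells had 20 or more Endo16 UMIs, and all 3 had blimp1/krox while 2 had GATAe.

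Among Endo16-high cells, either regulator was found in 1 of 2 at 72 hpf, 17 of 18 in the uninjected 48 hpf library, 17 of 22 with the gcm MO and 51 of 57 with the control MO. Both regulators were found in 1, 17, 9 and 41 of these cells in that order. The gcm MO share of high cells with both, 40.9% (20.7 to 63.7), was lower than the control MO share of 71.9% (58.5 to 83.0), with intervals that overlapped.

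**Figure D4:**
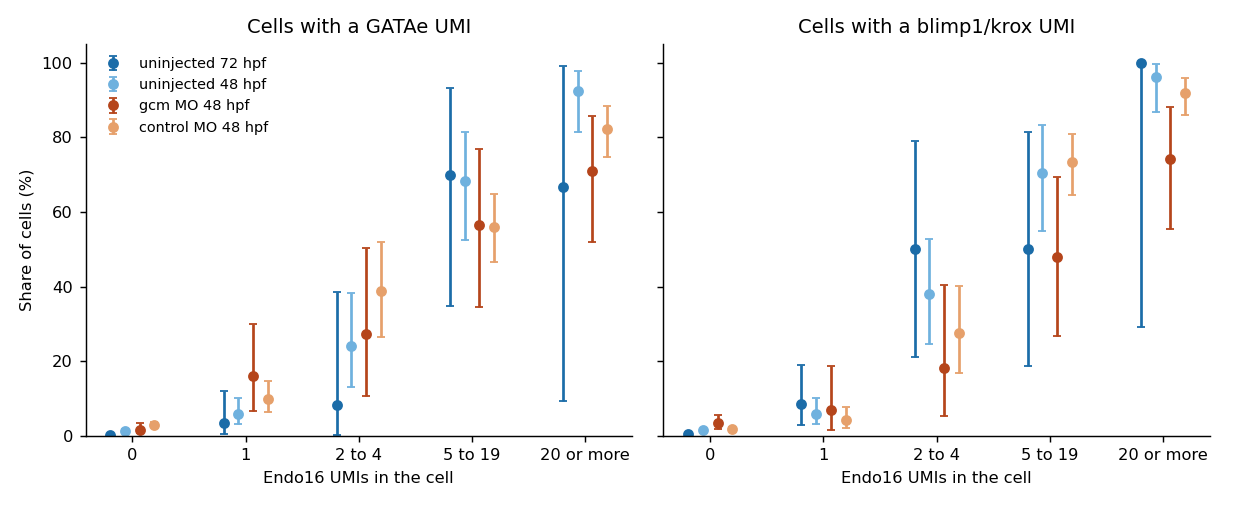
Share of cells with a GATAe UMI (left, %) and with a blimp1/krox UMI (right, %) by the number of Endo16 UMIs in the cell, in each library. Points are shares of cells and bars are 95% Clopper-Pearson intervals. Both regulators stand at 3.34% or less in cells without Endo16 and at 66.7% or more in cells with 20 or more Endo16 UMIs.

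The cells with the most Endo16 show what such profiles looked like. At 72 hpf the highest count was 34 Endo16 UMIs, in a cell with 4326 UMIs in all, of which 3 were of blimp1/krox, 2 of FoxA and 0 of GATAe, and in a second cell with 11010 UMIs in all, of which 5 were of GATAe, 2 of blimp1/krox and 4 of FoxA. The highest cell of the uninjected 48 hpf library had 130 Endo16 UMIs among 9124, with 12 of GATAe, 10 of blimp1/krox and 6 of FoxA. That of the gcm MO library had 130 among 4079, or 3.19% of the cell's RNA, with 9 of GATAe, 5 of blimp1/krox and 7 of FoxA, and that of the control MO library had 107 among 7070, with 8 of GATAe, 8 of blimp1/krox and 7 of FoxA. Of the 5 highest cells of each library 1 lacked both regulators, a 72 hpf cell with 17 Endo16 UMIs among 2169. These cells carried 0 or 1 UMI of the pigment genes and 0 or 1 of the spicule genes.

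The question of stage was read from uninjected 72 hpf over uninjected 48 hpf, which were sequenced in separate lanes, so that stage, lane and dissociation cannot be told apart. Endo16 was 11.7-fold lower at 72 hpf, with 18.7 against 219 CPM (ratio 0.0854, 0.0752 to 0.0966). The share of positive cells after thinning was 0.570% at 72 hpf, against 3.08% at 48 hpf (ratio 0.185, 0.127 to 0.266), and that of high cells 0.030% and 0.348% (ratio 0.0862, 0.00970 to 0.360). Among the 8459 genes that reached 200 UMIs when both libraries were added, 9.34% had a ratio of 0.5 or less, and 50 genes, Endo16 included, had a ratio as low as that of Endo16 or lower. Without the 5% of cells with the most UMIs the level ratio was 0.137, and as a mean over cells it was 0.157. The share ratio was 0.120 after thinning to 1000 UMIs and 0.123 with at least 2 UMIs required.

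The regulators differed between the stages by nearly the same ratio as Endo16. GATAe stood at 3.08 CPM at 72 hpf, against 33.5 CPM at 48 hpf (ratio 0.0920, 0.0663 to 0.125) and blimp1/krox at 4.52 and 48.6 CPM (ratio 0.0931, 0.0712 to 0.120). Endo16 UMIs per GATAe UMI were 6.07 at 72 hpf, against 6.54 at 48 hpf, a ratio of 0.928 (0.665 to 1.32), and per blimp1/krox UMI 4.14 and 4.51, a ratio of 0.918 (0.690 to 1.23). Per FoxA UMI they were 0.652 and 0.620, a ratio of 1.05 (0.893 to 1.23). All 3 intervals hold 1.

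Cells with a GATAe or blimp1/krox UMI after thinning were 0.450% of cells at 72 hpf, against 2.13% at 48 hpf, a ratio of 0.212 (0.136 to 0.319). Within cells with either UMI at full depth, a comparison added after the data were seen, Endo16 stood at 1108 CPM at 72 hpf, against 2870 CPM at 48 hpf (ratio 0.386, 0.330 to 0.449). Both the share of such cells and the Endo16 level summed over them were therefore lower at 72 hpf. Cells with both regulators were 9 of the 65 cells at 72 hpf and 96 of the 256 at 48 hpf. The summed level also reflects this mix. Median depths were 1380 and 3927.5 UMIs, and the part of depth in the mix was not tested. The Endo16 ratio was 0.297 with regulators called after thinning and 0.472 in cells with both regulators, whose lower and upper quartiles were 1617 and 4191 CPM at 72 hpf, against 2209 and 6888 CPM at 48 hpf. In the small classes with a single regulator it was not lower, at 1.99 (1.08 to 3.52) for GATAe only and 1.29 (0.928 to 1.77) for blimp1/krox only, but 1.16 and 0.727 without the highest cell of each library. In cells with neither regulator it was 0.242 (0.191 to 0.302). The gut list without Endo16 (GATAe, blimp1/krox and FoxA, with none at 0) summed to 36.3 CPM at 72 hpf, against 435 CPM at 48 hpf. The aboral ectoderm list (3 of 4 genes matched, ARS, SPEC1 and spec2c, none at 0) summed to 13662 CPM at 72 hpf, against 19466 CPM at 48 hpf. Their part in the Endo16 ratio was not tested.

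The question of gcm was read from gcm MO over control MO, whole gastrulae sequenced in a shared lane. Endo16 was 1.76-fold higher with the gcm MO, with 1217 against 690 CPM (1.68 to 1.85). Positive cells after thinning were 14.1% with the gcm MO and 9.21% with the control MO (ratio 1.53, 1.18 to 1.97), and high cells 4.08% and 1.72% (ratio 2.38, 1.39 to 3.95). All 3 measures were higher with the gcm MO beyond counting error. For the level, the interval takes UMIs as independent. After thinning, the variance of Endo16 UMIs over cells was 7.21 times the mean with the gcm MO and 4.02 times with the control MO. The level interval leaves out this spread between cells. Spread between libraries cannot be read from 1 library a condition. Among the 5336 genes that reached 200 UMIs in this pair, 6.28% had a ratio of 2 or more, and 598 genes, or 11.2%, had a ratio as high as that of Endo16 or higher. The size of the high-cell ratio depended on the call, with 1.83 at 3 or more UMIs of 500, 4.71 at 1000 UMIs, 5.93 without thinning and 12.3 (3.30 to 56.0) with at least 10 UMIs of 500, where 8 gcm MO and 4 control MO cells remained.

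The regulators did not follow Endo16 evenly here. GATAe stood at 97.7 CPM with the gcm MO and 89.1 CPM with the control MO (ratio 1.10, 0.927 to 1.29), and blimp1/krox at 144 and 103 CPM (ratio 1.41, 1.22 to 1.62). Endo16 UMIs per GATAe UMI were 12.5 with the gcm MO and 7.75 with the control MO, a ratio of 1.61 (1.36 to 1.92), and per blimp1/krox UMI 8.43 and 6.73, a ratio of 1.25 (1.08 to 1.45). Per FoxA UMI they were 2.86 and 2.64, a ratio of 1.08 (0.984 to 1.19). Endo16 RNA was thus higher relative to GATAe and, less so, to blimp1/krox, while the interval relative to FoxA holds 1.

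Within cells with either regulator, Endo16 stood at 6969 CPM with the gcm MO and 3917 CPM with the control MO (ratio 1.78, 1.69 to 1.88), and in cells with both at 10451 and 5797 CPM (ratio 1.80, 1.70 to 1.91). Per cell, those with both had a lower quartile of 2802 CPM, a median of 8136 CPM and an upper quartile of 13949 CPM with the gcm MO, against 2835, 5260 and 7553 CPM with the control MO. The lower quartiles were thus close, and the medians and upper quartiles further apart. In cells with only GATAe the ratio was 8.16 (6.54 to 10.2), or 6.39 without the highest cell of each library, and in cells with only blimp1/krox it was 1.05 (0.865 to 1.26), or 0.695 without them. In cells with neither regulator Endo16 stood at 253 CPM with the gcm MO and 107 CPM with the control MO (ratio 2.37, 2.10 to 2.68, or 1.90 without the highest cells), so that Endo16 was higher in regulator-negative cells as well. These class comparisons were added after the data were seen.

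Other cell types differed with the MO as well. Pigment-marker cells were 1.11% of cells with the gcm MO and 5.90% with the control MO, and skeleton-marker cells 0.371% and 1.57%. The pigment list (gcm and the 3 pigment genes, none at 0) summed to 232 and 1274 CPM, and the skeleton list (8 of 8 genes, none at 0) to 729 and 2004 CPM. Leaving out all pigment- and skeleton-marker cells gave an Endo16 ratio of 1.69 (1.61 to 1.77), within the counting interval of the full ratio. Regulator-positive cells after thinning were 8.72% with the gcm MO and 5.51% with the control MO (ratio 1.58, 1.12 to 2.19). The paper also reports that cells of gcm knockdown embryos were fragile in dissociation and lysed more readily than those of normal embryos. It ties the small number of sequenced cells to missing ectodermal cell types. Here the aboral ectoderm list summed to 13387 CPM with the gcm MO and 15264 CPM with the control MO. The neural and ciliary band list (4 of 5 genes matched) summed to 1078 and 850 CPM. The part of these lists in the Endo16 ratio was not tested. Embryo choice by phenotype, cell loss in dissociation and the MO itself cannot be told apart here. The part of cell loss and of free RNA in the droplets in the gcm MO ratios was not tested.

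The third comparison, uninjected 48 hpf over control MO, sets an ectoderm-enriched preparation against whole gastrulae of the same age, and preparation, injection, culture and lane cannot be told apart in it. Endo16 was 3.15-fold lower in the uninjected library, with 219 against 690 CPM (ratio 0.317, 0.304 to 0.331). Positive cells after thinning were 3.08% in the uninjected and 9.21% in the control MO library (ratio 0.334, 0.274 to 0.406), and high cells 0.348% and 1.72% (ratio 0.203, 0.112 to 0.350, but 0.482 with at least 10 UMIs and an interval that holds 1). Among 7803 genes, 10.4% had a ratio of 0.5 or less and 229 had a ratio as low as that of Endo16 or lower. Endo16 was still found in 347 cells of the enriched preparation, of which 201 had 1 UMI. At full depth their share, 6.71%, lay inside the interval of the pigment-marker cells of that library, 4.44% (2.74 to 6.78). After thinning the share over all cells, 3.08%, lay above the pigment-marker interval, 1.33% (0.491 to 2.88).

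GATAe stood at 33.5 CPM in the uninjected and 89.1 CPM in the control MO library (ratio 0.376, 0.336 to 0.420), blimp1/krox at 48.6 and 103 CPM (ratio 0.474, 0.430 to 0.522), and cells with either regulator after thinning were 2.13% and 5.51% (ratio 0.386, 0.302 to 0.492). In cells with both regulators Endo16 stood at 5581 CPM in the uninjected and 5797 CPM in the control MO library (ratio 0.963, 0.918 to 1.01). In cells with either regulator the ratio was 0.733 (0.701 to 0.766) at full depth but 1.02 (0.967 to 1.08) with regulators called after thinning. In cells with neither it was 0.261 (0.231 to 0.294). Whether the Endo16 level in regulator-positive cells was lower in the uninjected library thus depended on how those cells were called. The pigment list summed to 1895 and 1274 CPM, the skeleton list to 1187 and 2004 CPM and the aboral ectoderm list to 19466 and 15264 CPM in the uninjected and the control MO library, and their part in the Endo16 ratio was not tested.

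Of 28 endomesoderm genes listed for comparison, 14 were matched in the files by symbol: the transcription factors GATAe, blimp1/krox, GATAc, FoxA, eve, otx, lox, Gsc, Nk1 and Tcf/Lef, and the signalling ligands Wnt8, wnt1, delta and hh. For 72 over 48 hpf, 9 of the 14 reached 200 UMIs, and 4 of these had a ratio of 0.5 or less, against 9.34% of all genes, while 0 had a ratio of 2 or more, against 7.34% of all genes. They were GATAe, blimp1/krox, FoxA and Gsc. The median ratio of the 9 was 0.620, against 0.944 over all genes. FoxA, a forkhead factor of the gut and the stomodeum, stood at 28.7 CPM at 72 hpf, against 353 CPM at 48 hpf (ratio 0.0813, 0.0734 to 0.0898), close to Endo16. The homeobox genes eve, of the posterior vegetal region, and otx, of the endomesoderm and neurogenic ectoderm, differed less (ratios 0.620 and 0.771), and Tcf/Lef, the nuclear effector of Wnt signalling, was higher at 72 hpf (ratio 1.61, 1.42 to 1.83).

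For gcm MO over control MO, 6 of the 14 reached 200 UMIs and 0 of these had a ratio of 2 or more (6.28% of all genes did) and 0 one of 0.5 or less (5.7% did), with a median of 1.25 against 1.09 over all genes. FoxA (ratio 1.63) came nearest to Endo16. Of the genes below 200 UMIs, eve stood at 39.5 CPM with the gcm MO and 11.7 CPM with the control MO (ratio 3.38, 2.47 to 4.59) and GATAc, a factor of the mesoderm, at 7.68 and 17.0 CPM (ratio 0.453, 0.242 to 0.783). For uninjected 48 hpf over control MO, 11 of the 14 reached 200 UMIs, with 2 at 2-fold or more (eve and Nk1, against 8.05% of all genes) and 3 at 0.5 or less (GATAe, blimp1/krox and GATAc, against 10.4%). FoxA differed in the other direction from Endo16 in this pair, with 353 CPM in the uninjected and 261 CPM in the control MO library (ratio 1.35, 1.29 to 1.42), and Endo16 UMIs per FoxA UMI were 0.620 and 2.64.

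**Figure D5:**
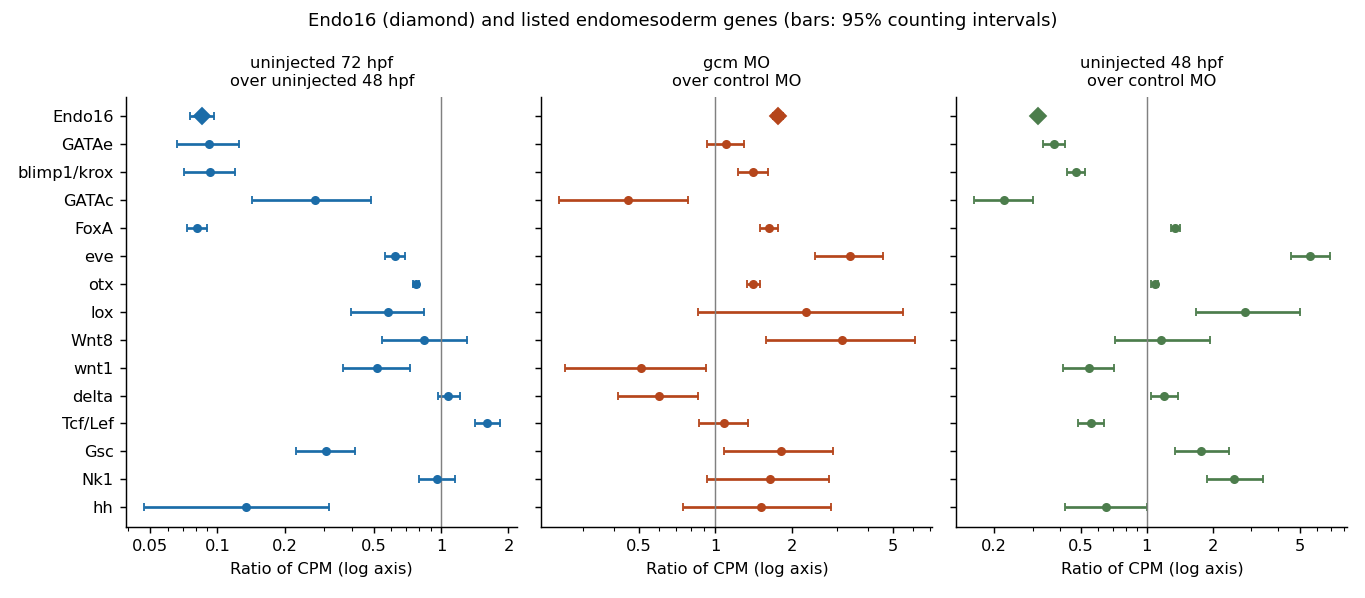
Ratio of CPM (x, log axis) of Endo16 (diamond) and the 14 matched endomesoderm genes (circles) for uninjected 72 hpf over uninjected 48 hpf, gcm MO over control MO and uninjected 48 hpf over control MO. Bars are 95% counting intervals and the grey line marks equal levels. Endo16, GATAe, blimp1/krox and FoxA lie between 0.0813 and 0.0931 in the first panel, and apart in the others.

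Within libraries the listed genes were compared between cells with 5 or more Endo16 UMIs and cells with none, for genes with at least 100 UMIs in the library. GATAe, blimp1/krox and FoxA were at 2-fold or more wherever they were counted, and the list had 3 of 10 genes at 2-fold or more in the uninjected 48 hpf library, against 10.1% of all genes. It had 3 of 4 with the gcm MO, against 11.7%, 4 of 9 with the control MO, against 13.9%, and 1 of 6 at 72 hpf, against 13.3%. The fourth gene of the control MO library was GATAc. FoxA stood at 1877 CPM in cells with 5 or more Endo16 UMIs and 224 CPM in cells with none with the gcm MO, and at 1001 and 156 CPM with the control MO. In the uninjected 48 hpf library it stood at 1619 and 307 CPM, and at 72 hpf at 683 and 24.8 CPM. At 0.5 or less were eve, delta, Gsc and Nk1 in the uninjected 48 hpf library (against 32.9% of all genes), delta and Nk1 at 72 hpf (against 56%), and wnt1 with the control MO (against 28.9%). The 72 hpf values rest on 0 UMIs in 13 cells, with intervals of the ratio up to 1.61 for delta and 4.46 for Nk1, and the interval of Nk1 in the uninjected 48 hpf library reaches 1.08, so these 3 are within counting error.

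Among the rarer genes of the list, lox and hh were found in the same cells as Endo16 at 48 hpf. Of 84 UMIs of lox, a homeobox gene of the posterior gut, 70 lay in the 96 cells with 5 or more Endo16 UMIs of the uninjected 48 hpf library. In that library 66.0% of 47 lox-positive cells had a thinned Endo16 UMI, and Endo16 stood at 4219 CPM in them (3969 to 4480). The same share was 5 of 5 cells with the gcm MO and 12 of 17 with the control MO, where Endo16 stood at 5422 and 5616 CPM. At 72 hpf 42 cells had a lox UMI, and their 0 Endo16 UMIs allow a level of 22.4 CPM at most. For hh, the Hedgehog ligand, Endo16 stood at 8994 CPM in 10 positive cells with the gcm MO, 4480 CPM in 41 with the control MO and 3321 CPM in 40 of the uninjected 48 hpf library, while the 4 hh-positive cells at 72 hpf had 0 Endo16 UMIs (229 CPM at most). Lox was thus found beside Endo16 in all 3 libraries at 48 hpf and in none of its 42 cells at 72 hpf, and hh was too rare at 72 hpf to read. Wnt8 and Gsc, by contrast, had no UMI in cells with 5 or more Endo16 UMIs in any library. Wnt8, a Wnt ligand, had 0 of its 40 UMIs at 72 hpf, 0 of 50 in the uninjected 48 hpf library, 0 of 16 with the gcm MO and 0 of 26 with the control MO in cells with 5 or more Endo16 UMIs, although each ratio to cells without Endo16 had an interval that holds 1. Gsc, a homeobox gene of the oral ectoderm, had 0 of 199 UMIs there in the uninjected 48 hpf library and 0 of 68 with the control MO, with intervals of the ratio that end at 0.522 and 0.447.

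The aboral ectoderm, pigment and skeleton lists were low in cells with 5 or more Endo16 UMIs. In the control MO library the aboral ectoderm list summed to 1237 CPM in them and 17376 CPM in cells without Endo16, the pigment list to 148 and 1432 CPM and the skeleton list to 195 and 2266 CPM. The ratio for these 3 lists was between 0.0374 and 0.147 in all 4 libraries. The neural and ciliary band list (4 of 5 genes matched) was also lower in these cells, with ratios between 0.445 and 0.599. The coelomic pouch list, of which vasa, an RNA helicase of the germ line, was the 1 gene of 4 matched, was higher in them at 48 hpf. Its ratio was 1.96 (1.37 to 2.74) in the uninjected 48 hpf library, 2.83 (1.85 to 4.25) with the gcm MO and 1.83 (1.39 to 2.37) with the control MO, and 1.60 (0.193 to 5.82) at 72 hpf. The gut list without Endo16 was higher, with ratios of 51.2 (39.7 to 65.4) at 72 hpf, 10.8 (10.2 to 11.4) in the uninjected 48 hpf library, 14.7 (12.9 to 16.7) with the gcm MO and 12.7 (11.9 to 13.6) with the control MO. The list of dividing cells (cyclin-dependent kinase 1, centromere protein C and cyclin B) was 1.35 (1.24 to 1.47) in the uninjected 48 hpf library, 1.70 (1.47 to 1.96) with the gcm MO and 1.38 (1.30 to 1.46) with the control MO, and 0.461 (0.230 to 0.826) at 72 hpf.

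The genes most like Endo16 were ranked by the lowest, over the 4 libraries, of Pearson's r of log(1 + UMIs per 10000) with Endo16 across the kept cells, among 2729 genes with at least 100 UMIs in each library. Cells of a library share its preparation and depth, and r is given as a description. The first was LOC575684, with r of 0.461 at 72 hpf, 0.545 in the uninjected 48 hpf library, 0.670 with the gcm MO and 0.759 with the control MO. It was detected in 13 of 13 cells with 5 or more Endo16 UMIs at 72 hpf, 93 of 96 in the uninjected 48 hpf library, 43 of 54 with the gcm MO and 250 of 255 with the control MO, against 1.19%, 6.70%, 10.0% and 12.9% of cells without Endo16. The others were LOC577898, LOC578352, LOC575621, LOC593118, LOC575553, LOC575434, LOC587093, LOC589852 and LOC587094, with lowest r between 0.286 and 0.417, all from the 72 hpf library, against a median of -0.0273 over the ranked genes. LOC589852 reached the highest r of the 10 in any library, 0.776 with the control MO.

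LOC575553 had the highest level of the 10 in cells with 5 or more Endo16 UMIs at 72 hpf. There it stood at 10930 CPM in cells with 5 or more Endo16 UMIs and 21.9 CPM in cells without Endo16, and was detected in 13 of 13 and 3.04% of them. With the control MO it stood at 1832 and 28.7 CPM, so its level in Endo16-rich cells was not alike in the libraries. This was not particular to it. LOC587093 stood at 6923 CPM in such cells at 72 hpf and 1170 CPM with the control MO, LOC575621 at 3859 and 686 CPM and LOC578352 at 3176 and 446 CPM. LOC593118 stood at 2640 and 948.5 CPM and LOC577898 at 1828 and 1114 CPM. LOC575684, LOC575434 and LOC589852 were lower in such cells at 72 hpf than with the control MO. LOC587094 was close in the 2 libraries, at 572 and 610 CPM. FoxA ranked 16 of 2729, with a lowest r of 0.218. GATAe and blimp1/krox had fewer than 100 UMIs at 72 hpf and were not ranked. In the uninjected 48 hpf, gcm MO and control MO libraries their r was 0.555, 0.575 and 0.591 for GATAe and 0.631, 0.587 and 0.724 for blimp1/krox.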

How the data were processed

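Cells of the 4 libraries (1 per condition) were captured with 10x Chromium 3' v3 chemistry. The deposited values are raw UMI counts per gene and cell, which the authors made with Cell Ranger against their own reference of assembly Spur_4.2. Deposited cells numbered 8178, 5688, 643 and 3402 in the order 72 hpf, uninjected 48 hpf, gcm MO and control MO, and those with 400 to 2500 detected genes were kept, with 14602157, 15379620, 1822536 and 9314829 UMIs. The authors' notes also name Seurat 3.1.4, whose output was not used here.

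UMIs were summed per library or class of cells and divided by the UMIs of those cells (CPM). Levels carry exact Poisson, shares Clopper-Pearson and ratios conditional binomial intervals at 95%, and a count of 0 is taken to allow 3. Cells were thinned to 500 UMIs with a fixed seed. Gene backgrounds took genes reaching 200 UMIs in the summed pair, or 100 within one library, and a fold of 2. Named genes were Endo16, its regulators, the endomesoderm list and the 10 genes most alike. Endomesoderm genes were to be compared between Endo16-high cells and cells without Endo16. Cells with 5 or more Endo16 UMIs at full depth were taken in place of high cells after the data were seen, since 72 hpf had 2 high cells. Members and lists were chosen with earlier results of these data known. Doublets were not called; an alternative leaves out the 5% deepest cells. Strand and paralogue handling in the counting is not given in the sources used here. Scripts ran in Python 3.11.15 with numpy 2.4.6, scipy 1.17.1 and pandas 2.3.3, and were tested on simulated data.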

Additional observations from a re-analysis of the deposited data

Results flagged for a closer look

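Endo16 was also counted in cells outside the limits on detected genes, which no comparison above uses. In the gcm MO library it stood at 3834.6 CPM (3655 to 4021) in 48 cells with more than 2500 genes and at 2682.2 CPM (2145 to 3313) in 56 cells with fewer than 400 genes. In the control MO library it stood at 4514.0 CPM (4106 to 4952) in 10 cells with more than 2500 genes. All 3 values lie above those of the kept cells of the same library, 1217 CPM with the gcm MO and 690 CPM with the control MO. Of the cells with more than 2500 genes, 22 of the 48 and 8 of the 10 had an Endo16 UMI. They held 1701 of the 4005 deposited Endo16 UMIs with the gcm MO and 448 of 6911 with the control MO, so the upper limit acted unequally on this pair. Control MO cells with fewer than 400 genes stood at 795 CPM (544 to 1122). In the uninjected libraries the cells with more than 2500 genes had 0 Endo16 UMIs in 108 cells at 72 hpf, which allows 2.11 CPM, and 637 CPM in 117 cells at 48 hpf.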

How the results depend on the processing

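Of 119 alternatives on the scale of the reported value, 81 left it within its counting interval and 37 moved it beyond that. The remaining 1 turned the direction of the point value, with an interval that holds 1. The level ratios 72 over 48 hpf, gcm MO over control MO and uninjected 48 hpf over control MO were, in that order, 0.0732, 2.38 and 0.352 with all deposited cells, 0.0661, 2.37 and 0.353 with no upper limit on genes, 0.137, 1.99 and 0.227 without the 5% deepest cells, and 0.157, 2.49 and 0.285 as means over cells. As differences of mean log(1 + UMIs per 10000), another scale that cannot be set against the ratios, the comparisons gave -0.129, 0.241 and -0.301. The positive-share ratio was 0.120 for 72 over 48 hpf at 1000 UMIs and 0.123 with at least 2 UMIs, and 0.407 for uninjected 48 hpf over control MO without thinning. The high-share ratio of 72 over 48 hpf was 0 at 1000 UMIs and with at least 10 UMIs, where 72 hpf had 0 such cells. That of gcm MO over control MO was 4.71 at 1000 UMIs, 5.93 without thinning and 12.3 with at least 10 UMIs, and that of uninjected 48 hpf over control MO was 0.482 with at least 10 UMIs. At 1000 UMIs, which left out 34.1%, 18.6%, 26.0% and 4.03% of cells (72 hpf, uninjected 48 hpf, gcm MO, control MO), the share of GATAe-positive cells with Endo16 was 40.0% at 72 hpf, 53.9% in uninjected 48 hpf and 67.8% in control MO cells, and that of blimp1/krox-positive cells 39.1%, 56.3% and 79.4%. With at least 2 UMIs the GATAe share was 34.9% in uninjected 48 hpf, 54.5% in gcm MO and 41.5% in control MO cells, and the blimp1/krox share 37.2%, 50.9% and 51.7%. A second random draw gave 37.2% for blimp1/krox at 72 hpf. In regulator-positive cells (added after seeing the data) the ratio of 72 over 48 hpf was 0.297 with thinned calls and 0.472 with both regulators. That of uninjected 48 hpf over control MO was 0.963 with both and 1.02 (0.967 to 1.08) with thinned calls. The thinned calls turned the direction of the point value, but the interval holds 1, and the cause was not tested. No paired analysis was possible because each condition has 1 library, and for the same reason no replicate could be left out. Depth limits 72 hpf most, where 38 thinned cells carry Endo16.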
